A study of Homo sapiens with 2 samples.

Results

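The genes described here encode the actin cytoskeleton, from the actins themselves to the proteins that bundle, anchor, branch and take apart their filaments. They were chosen by symbol from a list of 51 genes, by a rule that reads no tag count, and 49 of the 51 were among the 13137 genes of the deposited table. The list itself was drawn up with earlier results of these data known. FLNC and TMSB4X were not analysed here. The list held 2 actins, 10 tropomyosins and myosins, 16 crosslinkers and linkers, 11 genes of the ARP2/3 complex and its activators, and 10 factors of filament turnover. Actin monomers join and leave the ends of filaments all the time, and profilin, thymosin, cofilin and capping proteins set where and how fast this happens. The ARP2/3 complex starts a new filament on the side of an old one, which builds the broad front of a moving cell, while tropomyosin and myosin II make the contractile bundles called stress fibers. Alpha-actinin, filamin, fascin and plastin tie filaments to each other, and talin, vinculin, ezrin and moesin tie them to the membrane.

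The data came from A549, an established human lung adenocarcinoma line, in which lentivirus carried an H1TetO cassette that makes a short hairpin RNA when doxycycline is present. In the shRNA-SOX2 group the hairpin was directed against SOX2, a stem cell transcription factor, and in the shRNA-Con group it was a scrambled sequence. Both groups were polyclonal, puromycin-selected lines, both were kept in doxycycline for 4 days, and each gave 1 library of digital gene expression, a method that reads 1 short tag per mRNA, from 4 µg of total RNA. The comparison asks which transcripts differed between the line with the induced hairpin against SOX2 and the line with the induced scrambled hairpin. Other differences between the lines cannot be told apart from those of the hairpin.

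The libraries held 2304184 gene tags for shRNA-Con and 2093816 for the library labelled shRNA-SOX2. The table names its columns SC and S1, and these were read as shRNA-Con and shRNA-SOX2. SOX2 itself gave 16 tags in shRNA-Con against 23 under the shRNA-SOX2 label. Its log2 fold change was 0.66 with a 95% interval from -0.32 to 1.68 (adjusted p = 0.333), so its tags did not check the label, and every direction below is that of the labels. Of the keratins that mark epithelial cells, KRT8 gave 7702 and 12729 tags and KRT18 gave 10318 and 7887, with shRNA-Con given first here and below. KRT19 was lower in level and gave 35 and 127 tags. The epithelial markers EPCAM (8 and 4 tags) and CDH1 (50 and 50) were low. Markers of other cell types stayed low too. The 5 of 8 fibroblast markers in the table summed to 53 and 70 tags, the 3 of 7 muscle markers to 25 and 45 with ACTC1 and MYOCD at 2 and 0 each, and the 4 of 6 leukocyte markers to 15 and 21. The part of these cells in the results was not tested. In RNA from a whole culture, fewer cells of a type and less RNA per cell cannot be told apart.

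Every fold change below divides the library labelled shRNA-SOX2 by shRNA-Con, with each count first set against the gene tags of its own library. A gene is said to rise or fall where a two-sided Fisher's exact test of its tags passed a Benjamini-Hochberg adjusted p of 0.001 over all genes. With 1 library per condition there was no replicate spread, so the test compared these libraries and not the conditions, and each interval is a 95% interval of counting error only. Levels are given as tags per 1000000 gene tags, and because each mRNA gives 1 tag they are not divided by length.

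The actin cytoskeleton genes ranged from 21 tags (MYL9) to 14250 tags (ACTB) in the libraries together, with a median of 911. As a whole they took 2.41% of the gene tags in shRNA-Con (95% Clopper-Pearson interval, 2.39% to 2.43%) against 2.12% in the library labelled shRNA-SOX2 (2.10% to 2.14%). Most of this difference lay in a single gene, ACTG1. Without ACTG1 the other 48 took 2.10% and 1.99%. The plot of levels shows the genes by role.

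**Figure D1:**
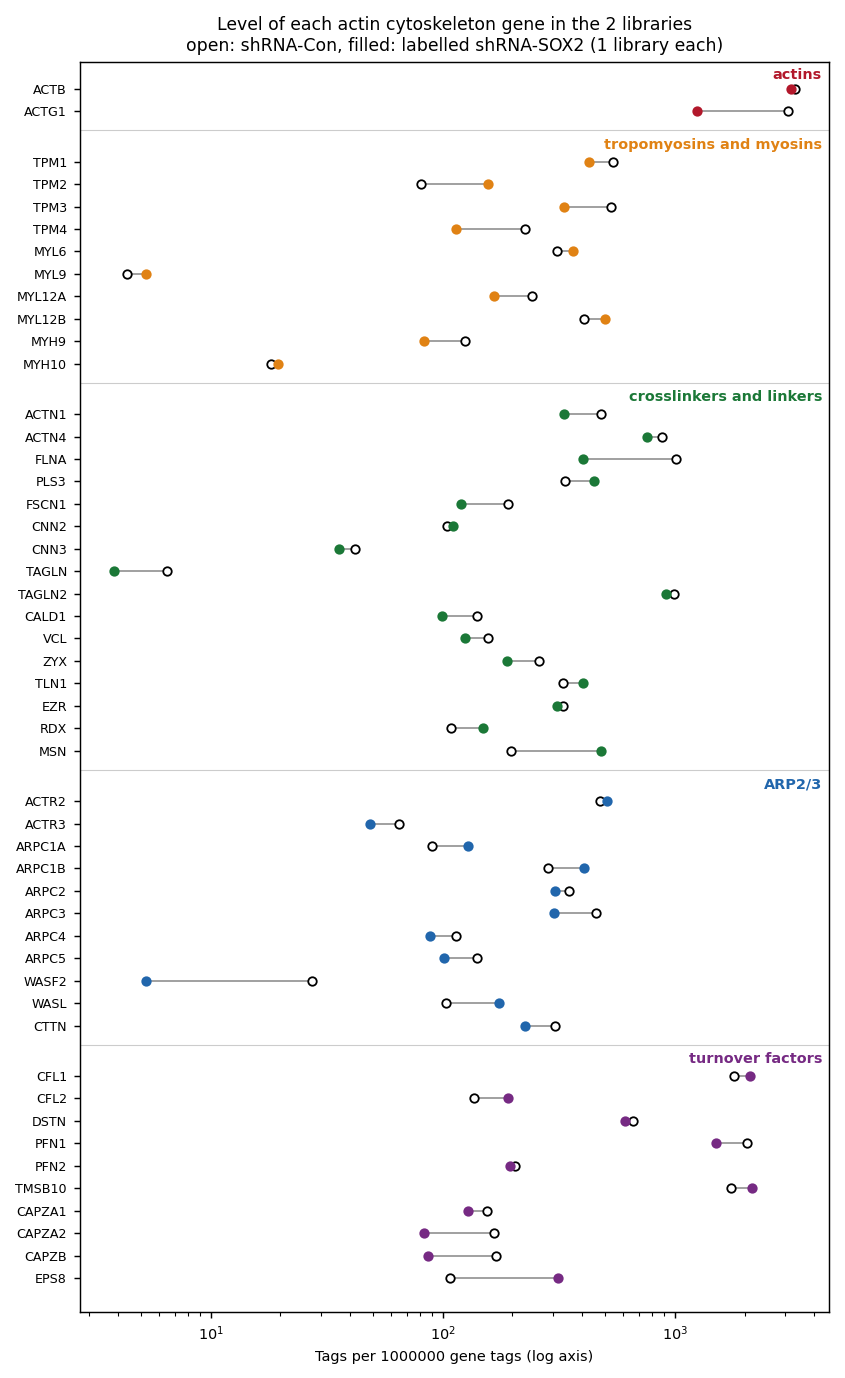
Tags per 1000000 gene tags (x axis, log scale) of the 49 actin cytoskeleton genes, grouped by role, with the shRNA-Con library as open and the library labelled shRNA-SOX2 as filled circles (1 library each). ACTB sits at 3311 and 3162 with the circles almost touching, while ACTG1 drops from 3069 to 1247, and MSN and EPS8 move to the right.

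Of the 49 genes, 31 were called, 13 of them higher and 18 lower in the library labelled shRNA-SOX2. This was 63.3% of the list, beside 21.7% of all genes called, 9.53% called higher and 12.2% called lower. Deeply counted genes are called more easily, and most of these genes were deep. Among genes with at least 100 tags, 30 of 45 members (66.7%) were called beside 39.1% of all genes, and with at least 500 tags 28 of 39 (71.8%) beside 61.8%. The counts by role below are to be set beside these shares of all genes. The sizes of the differences were close to those of other genes. With at least 500 tags the median size of the log2 fold change was 0.46 for the members and 0.47 for all genes. A difference of 2-fold or more was seen upward in 2 members (4.08%, beside 10.4% of all genes with at least 20 tags) and downward in 3 (6.12%, beside 13.0%). These 2-fold shares were not matched for depth, and the members were mostly deep. The median log2 fold change was -0.22 over the members and -0.10 over all 10045 genes with at least 20 tags. Over all genes with at least 100 tags it was -0.13.

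**Figure D2:**
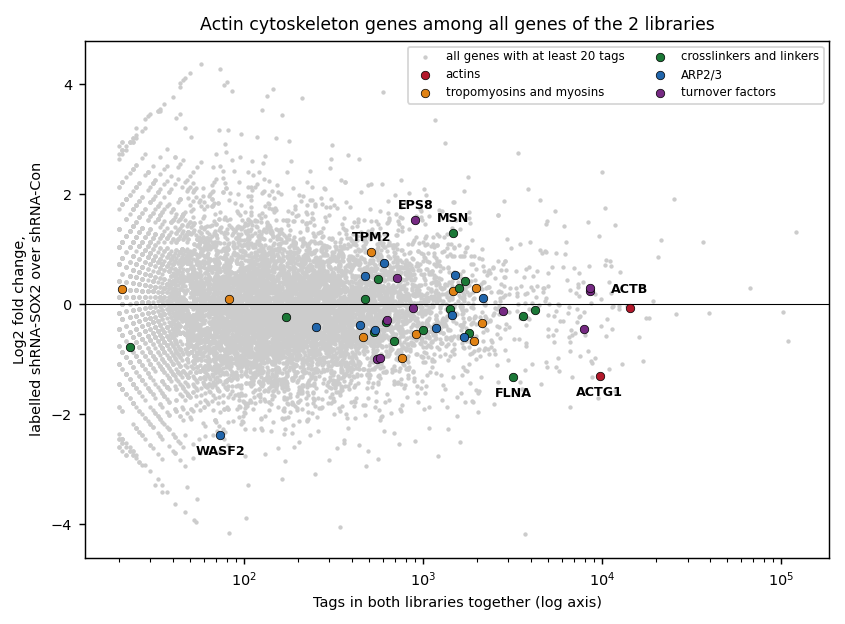
Log2 fold change, library labelled shRNA-SOX2 over shRNA-Con, against tags in both libraries together (log axis) for all genes with at least 20 tags (grey) and for the actin cytoskeleton genes (coloured by group). The members lie within the cloud of other genes, mostly to its right, with ACTG1, FLNA and WASF2 more than 2-fold down and MSN and EPS8 more than 2-fold up.

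The direction counts depended on the scaling. Division by all clean tags of each library, in place of gene tags, shifted each log2 fold change by -0.11 and gave 8 members higher and 24 lower. TMM factors, median ratio size factors and scaling to ACTB each gave 14 higher and 16 lower. With clean tags 23.0% of all genes were called and 66.6% of these were lower, beside 75% of the called members. With TMM factors 21.3% of all genes were called and 49.4% of these were lower, beside 53.3% of the called members. When a spread between cultures was assumed, with a coefficient of variation of 0.1 in edgeR's exact test, 8 members were called (16.3% of the list) beside 8.88% of all genes. These were ACTG1, TPM4, FLNA, WASF2, CAPZA2 and CAPZB among the lower and MSN and EPS8 among the higher. With an assumed coefficient of variation of 0.2, edgeR's exact test called 0 members beside 0.860% of all genes.

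Of the actins, ACTG1 fell and ACTB did not pass the test. ACTB (Entrez Gene 60) and ACTG1 (Entrez Gene 71) encode beta- and gamma-actin, the main actin monomers of a non-muscle cell. ACTG1 gave 7072 tags in shRNA-Con against 2611 in the library labelled shRNA-SOX2. It was 2.46-fold lower (95% interval, 2.35 to 2.58), with an adjusted p too small for double precision, and went from the 21st most abundant gene of the table to the 93rd. ACTB gave 7629 and 6621 tags (log2 fold change -0.07, adjusted p = 0.0193). It was 18th and 20th in abundance.

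The actins therefore started at nearly equal levels and ended apart. The ratio of ACTB to ACTG1 tags was 1.08 in shRNA-Con against 2.54 in the library labelled shRNA-SOX2, and this ratio changed 2.35-fold (2.22 to 2.49). A ratio within a library does not depend on the scaling between libraries. ACTB made up 51.9% of the tags of the pair in shRNA-Con against 71.7% in the other library. The study's methods name beta-actin as the loading control. The sign of the ACTB difference turned under TMM factors (0.01 on the log2 scale), and with clean tags ACTB was called lower (log2 fold change -0.18, adjusted p = 1.67e-12). How the authors counted tags shared by the actins, or by the 14 genes named as pseudogenes of ACTB and 21 of ACTG1 in RefSeq, is not given in the sources used here, so the split between them is uncertain.

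**Figure D3:**
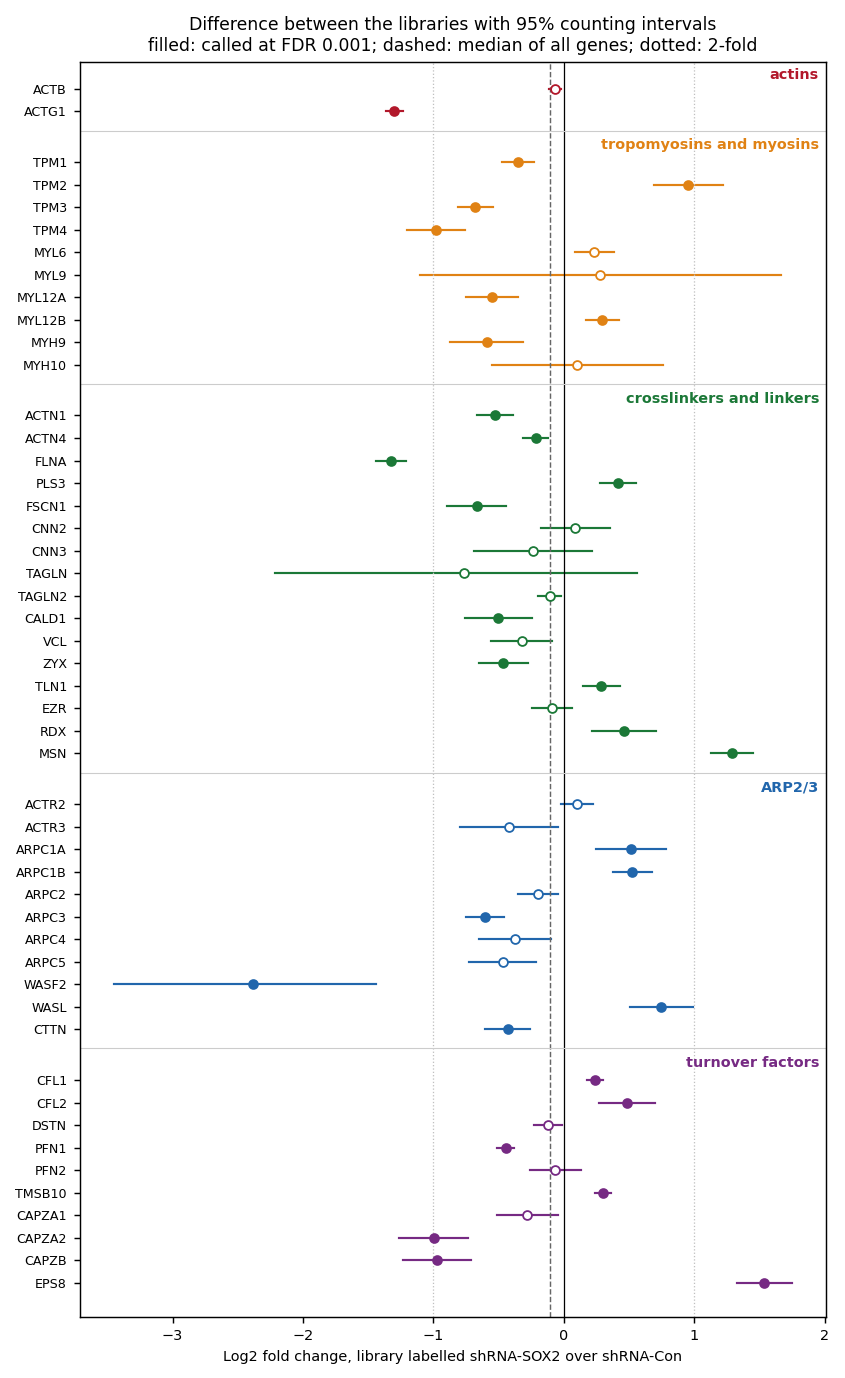
Log2 fold change, library labelled shRNA-SOX2 over shRNA-Con (x axis), with 95% counting intervals for the 49 genes by group. Filled circles were called at an adjusted p under 0.001, the dashed line is the median of all genes (-0.10) and the dotted lines mark 2-fold. Each group other than the actins holds genes called in both directions.

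All 4 tropomyosins were called, 3 lower and 1 higher. Each had at least 514 tags, and 61.8% of all genes with at least 500 tags were called. Tropomyosins are coiled coils that lie along the filament and control which myosins and severing proteins reach it. TPM1 went from 1254 tags to 894 (log2 fold change -0.35, adjusted p = 2.44e-07) and TPM3 from 1223 to 695 (-0.68, 3.26e-22). TPM4 went from 520 tags to 240, which was 1.97-fold lower (1.69 to 2.30). TPM2 moved the other way, from 186 tags to 328, and was 1.94-fold higher (1.62 to 2.34). Its share of all tropomyosin tags was 5.84% (5.05% to 6.72%) in shRNA-Con and 15.2% (13.7% to 16.8%) in the library labelled shRNA-SOX2. TPM4 had the opposite course, with 16.3% and 11.1%. There were 0.358 TPM2 tags per TPM4 tag in shRNA-Con against 1.37 in the library labelled shRNA-SOX2, a change of 3.82-fold (2.996 to 4.87), the largest of the 24 pairs compared. A row for a TPM3 pseudogene, LOC147804, gave 26 and 75 tags, a direction opposite to TPM3, and tags that both could hold were not separable here.

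Of the non-muscle myosin II genes, 2 fell, 1 rose and 3 were not called. Myosin II pulls filaments past each other, with heavy chains as the motor and a regulatory and an essential light chain on each. MYH9, the heavy chain of myosin IIA, fell from 288 tags to 174 (log2 fold change -0.59, adjusted p = 1.00e-04). MYH10, that of myosin IIB, gave 42 and 41 tags. The ratio of MYH9 to MYH10 was 6.86 and 4.24, and the interval of its change, 0.377 to 1.02, held 1. The near-identical regulatory light chains MYL12A and MYL12B moved apart. MYL12A fell from 562 tags to 349 (-0.55, 1.74e-07) and MYL12B rose from 937 to 1045 (0.30, 3.44e-05). MYL12A was 37.2% of the regulatory light chain tags in shRNA-Con against 24.8% in the library labelled shRNA-SOX2. With clean tags MYL12B was no longer called (adjusted p = 0.0155), whereas the change of the ratio between them, 0.557 (0.473 to 0.655), did not depend on scaling. How tags shared by this pair were counted is not stated, so its split is uncertain as well. MYL9, the regulatory light chain of smooth muscle, was barely counted (10 and 11 tags). MYL6, the essential light chain, gave 715 and 764 tags (log2 fold change 0.23, adjusted p = 0.00703) and passed the threshold with TMM factors (2.51e-04), median ratio factors and scaling to ACTB.

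The crosslinkers and bundlers were all called, 4 lower and 1 higher. Each had at least 692 tags, a depth class (500 tags or more) in which 61.8% of all genes were called. FLNA (Entrez Gene 2316) encodes filamin A, which joins filaments into a loose net and ties them to integrins. It gave 2332 tags in shRNA-Con against 847 in the library labelled shRNA-SOX2, and was 2.50-fold lower (2.31 to 2.71, adjusted p = 3.27e-127). FLNA and ACTG1 were the deepest of the members past 2-fold. The alpha-actinins ACTN1 and ACTN4, which space filaments in stress fibers, were lower by less. ACTN1 fell from 1108 tags to 698 (log2 fold change -0.53) and ACTN4 from 2025 to 1584 (-0.22). The ACTN4 call was lost with TMM factors (adjusted p = 0.0108), median ratio factors and scaling to ACTB. FSCN1, or fascin, which packs the parallel bundles of filopodia, fell from 440 tags to 252 (-0.67, 3.25e-08). PLS3, or T-plastin, another bundler, rose from 774 tags to 940 (0.42, 2.28e-08). The 5 genes together took 0.290% of gene tags in shRNA-Con against 0.206% in the library labelled shRNA-SOX2.

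Of the calponin, transgelin and caldesmon genes, 1 of 5 was called. CALD1, or caldesmon, which holds back myosin on tropomyosin-coated filaments, fell from 324 tags to 208 (log2 fold change -0.50, adjusted p = 4.52e-04), a call lost with TMM factors (0.0033), median ratio factors and scaling to ACTB. TAGLN2, the abundant transgelin of these cells, gave 2282 and 1926 tags (-0.11, 0.0471), and passed the threshold with clean tags (5.95e-06). The calponins CNN2 (241 and 233 tags) and CNN3 (97 and 75) did not pass, and the sign of CNN2 turned from 0.09 to -0.02 with clean tags. TAGLN, the smooth muscle transgelin, had only 15 and 8 tags, and its interval ran from -2.21 to 0.56 on the log2 scale.

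The linkers to adhesions and to the membrane differed in direction. ZYX, or zyxin, a LIM protein of focal adhesions and stress fibers, fell from 602 tags to 397 (log2 fold change -0.46, adjusted p = 4.62e-06). TLN1, or talin, which binds integrin tails, rose from 758 to 841 (0.29, 3.48e-04), though not with clean tags (0.0429). VCL, or vinculin, which reinforces the talin link, gave 360 and 262 tags (-0.32, 0.0196) and passed the threshold with clean tags (9.64e-04).

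Moesin had the clearest rise among the linkers. MSN (Entrez Gene 4478) gave 454 tags in shRNA-Con against 1010 in the library labelled shRNA-SOX2, and was 2.45-fold higher (2.19 to 2.74, adjusted p = 2.86e-59). Ezrin, radixin and moesin are close relatives that hold the filament net under the plasma membrane. RDX rose from 250 tags to 313 (0.46, 7.91e-04), a call lost with clean tags (0.0147). EZR, which is typical of epithelia, gave 764 and 652 tags (-0.09, 0.374). EZR was the most counted of the family in shRNA-Con, with 52.0% of its tags to 30.9% for MSN, and MSN was the most counted in the library labelled shRNA-SOX2, with 51.1% to 33.0% for EZR. The ratio of EZR to MSN was 1.68 and 0.646, a change of 0.384 (0.328 to 0.448).

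Many cytoskeletal genes are known to be controlled by serum response factor (SRF), which binds a CArG box and whose MKL coactivators are held by free actin monomers. The box is CC, then 6 letters that are each A or T, then GG, and it reads as the same motif on both strands. It was searched in the RefSeq promoter windows of GRCh38.p14, from 250 bases before each gene start to 50 bases after, which were found for 40 of the 49 genes. The other 9 were ACTB, MYL9, FSCN1, TAGLN, ARPC1B, WASF2, CTTN, PFN2 and EPS8. The box was found for 5 of the 40 genes (12.5%), beside 1.60% of the 27305 genes with a window and 1.29% of the 35116 windows. A gene was counted if any of its windows held the box, and the 40 genes had 64 windows. The shares by gene were not matched for windows per gene, and the 27305 genes were not limited to those with tags here. The stretches are shown because ACTG1 and FLNA, the deepest genes past 2-fold, were among the 5. They read 5′ to 3′ on the strand of the gene, with the box in capitals and 10 bases on each side.
ACTG1: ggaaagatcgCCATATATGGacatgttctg
FLNA: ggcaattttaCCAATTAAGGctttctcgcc
TPM4: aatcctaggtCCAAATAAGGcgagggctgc
ACTN1: acgctcatgtCCAAAAATGGtaacattcat
CNN2: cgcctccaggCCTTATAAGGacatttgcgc
They lie at chr17:81512874-81512903 on the minus strand (ACTG1), chrX:154374709-154374738 on the minus strand (FLNA), chr19:16067355-16067384 on the plus strand (TPM4), chr14:68977718-68977747 on the minus strand (ACTN1) and chr19:1026509-1026538 on the plus strand (CNN2). The box began 94 bases before the start of ACTG1 and of FLNA, 89 before that of CNN2, 171 before that of ACTN1 and 173 before that of TPM4. ACTG1, FLNA, TPM4 and ACTN1 fell, and CNN2 was not called. Among all 49 members 18 fell, of which FSCN1, WASF2 and CTTN had no window and were not searched. A part of SRF in these differences was not tested. A match describes letters in the window and is not evidence of a bound site. SRF gave 122 and 89 tags, MKL1 104 and 73, and MKL2 77 and 76, and none of the 3 was called.

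Among the 8 subunits of the ARP2/3 complex, 2 rose, 1 fell and 5 were not called. Each complex holds either ARPC1A or ARPC1B beside the other subunits, with ACTR2 and ACTR3 as the actin-like pair that seeds the branch. ACTR2 gave 1095 and 1070 tags (log2 fold change 0.10, adjusted p = 0.186) and its sign turned with clean tags (-0.01). ACTR3 was counted less often, at 150 and 102 tags (-0.42, 0.0683). The counts of these subunits were unequal, with 7.30 ACTR2 tags per ACTR3 tag in shRNA-Con against 10.5 in the library labelled shRNA-SOX2.

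The ARPC1 isoforms, which are alternatives in the same place of the complex, rose by about the same factor. ARPC1A went from 207 tags to 269 (log2 fold change 0.52, adjusted p = 5.48e-04) and ARPC1B from 653 to 855 (0.53, 2.35e-11). Their ratio was 0.317 in shRNA-Con against 0.315 in the library labelled shRNA-SOX2, a change of 0.992 with an interval from 0.802 to 1.23. ARPC1A was not called with clean tags (0.00833). ARPC3, a peripheral subunit, went the other way and fell from 1054 tags to 631 (-0.60, 9.37e-16). ARPC2, a core subunit, gave 809 and 641 tags (-0.20, 0.0292), ARPC4 262 and 184 (-0.37, 0.0239) and ARPC5 324 and 213 (-0.47, 0.00107). ARPC5 lay just outside the threshold and inside it when genes under 10 tags were left out (9.09e-04), and with clean tags both ARPC2 (2.34e-04) and ARPC5 (2.76e-05) were called. The summed tags of the 8 subunits took 0.198% and 0.189% of gene tags.

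All 3 activators and stabilisers of the complex were called, in both directions. WASF2 (Entrez Gene 10163) encodes WAVE2, which switches on ARP2/3 downstream of Rac. It gave 63 tags in shRNA-Con against 11 in the library labelled shRNA-SOX2, and was 5.20-fold lower (2.72 to 11.0, adjusted p = 3.69e-08), with the lowest depth of any called member. WASL, or N-WASP, which does so downstream of Cdc42, rose from 239 tags to 365 (log2 fold change 0.75, adjusted p = 3.29e-09). CTTN, or cortactin, which holds branches in place, fell from 706 tags to 476 (-0.43, 3.38e-06).

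The turnover factors held the most abundant members beside the actins. Severing genes rose or were not called. CFL1, the cofilin of non-muscle cells, which cuts old filaments, rose from 4143 tags to 4443 (log2 fold change 0.24, adjusted p = 2.83e-13). CFL2, the muscle-type cofilin, rose from 314 to 399 (0.48, 5.62e-05), though not with clean tags (0.00254). DSTN, or destrin, a cofilin relative, gave 1529 and 1276 tags (-0.12, 0.0652) and was called lower with clean tags (9.13e-05). The ratio of CFL1 to DSTN was 2.71 and 3.48, a change of 1.29-fold (1.18 to 1.40).

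Of the monomer binding genes, PFN1 fell and TMSB10 rose. PFN1, or profilin 1, which hands monomers to growing ends, went from 4726 tags to 3153 and was 1.36-fold lower (1.30 to 1.43, adjusted p = 4.07e-40). Profilin 2 (PFN2) gave 472 and 410 tags (log2 fold change -0.07, adjusted p = 0.648), and its sign turned under TMM factors (0.01). There were 10.01 PFN1 tags per PFN2 tag in shRNA-Con against 7.69 in the library labelled shRNA-SOX2. TMSB10, a thymosin that keeps monomers out of filaments, rose from 4034 tags to 4510 (0.30, 2.66e-20). A PFN1 pseudogene row, PFN1P2, held 7 and 6 tags.

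The capping genes differed in direction and had large differences. CAPZA2 and CAPZB encode an alpha and the beta subunit of the protein that closes the fast-growing end of filaments. CAPZA2 fell from 382 tags to 174 and was 1.99-fold lower (1.66 to 2.40). CAPZB fell from 391 to 181 and was 1.96-fold lower (1.64 to 2.35). CAPZA1, the other alpha subunit, gave 359 and 269 tags (log2 fold change -0.28, adjusted p = 0.0451). CAPZA1 and CAPZA2 were counted nearly alike in shRNA-Con, at a ratio of 0.940, and at 1.55 in the library labelled shRNA-SOX2, a change of 1.64-fold (1.29 to 2.10). EPS8 (Entrez Gene 2059), which caps and bundles filaments and links them to Rac signalling, had the largest rise of all the members. It went from 249 tags to 657 and was 2.90-fold higher (2.51 to 3.37, adjusted p = 2.78e-50). The 4 capping genes together took 0.0599% and 0.0612% of gene tags, so the fall of CAPZA2 and CAPZB and the rise of EPS8 nearly cancelled in the sum.

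Related genes were compared within a library in 24 pairs, since such ratios hold under any scaling. Pairs that share a gene, as among the tropomyosins or ezrin, radixin and moesin, are not independent. The same share was not computed for other pairs of deep genes. In 18 pairs the interval of the change left out 1 and in 6 it held 1, without correction for the number of pairs. The 6 were MYL9 with MYL12A and with MYL12B, MYH9 with MYH10, CNN2 with CNN3, TAGLN with TAGLN2, and ARPC1A with ARPC1B. All but the last contained a gene with fewer than 100 tags in each library.

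**Figure D4:**
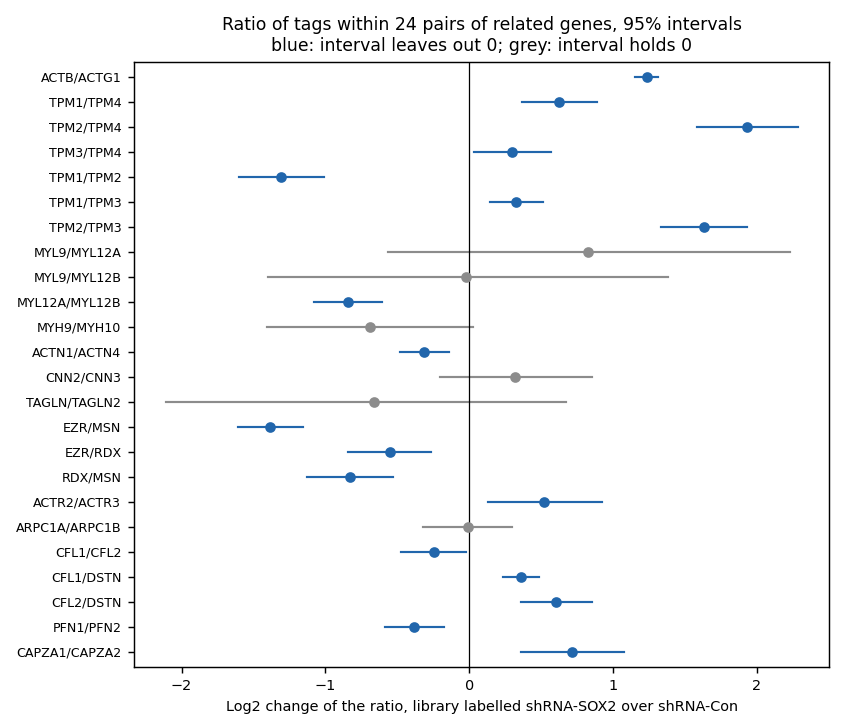
Change in the ratio of tags within 24 pairs of related genes (log2, library labelled shRNA-SOX2 over shRNA-Con) with 95% intervals of counting error, blue where the interval leaves out 0. TPM2/TPM4 lies farthest to the right and EZR/MSN farthest to the left, and ARPC1A/ARPC1B sits near 0 with an interval from -0.32 to 0.30.

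Other genes came from 5 lists, of actin regulators and of SRF with its targets, such as FOS and CYR61. These lists gave 110 genes in the table that are not among the 49, called the other actin genes below. Of these, 12 were called higher and 27 lower, or 35.5% in all, beside 21.7% of all genes and 39.1% of those with at least 100 tags. Their median log2 fold change was -0.19. The counts by list below are to be set beside the same shares.

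Of 24 nucleators and WAVE complex genes, 1 rose and 6 fell. The formin FHOD1 rose from 60 tags to 209 (log2 fold change 1.94), and the formin DIAPH1 fell from 120 to 48 (-1.18). The Cdc42 effector CDC42EP1 fell from 146 tags to 34 (-1.96) and the N-WASP partner WIPF2 from 161 to 49 (-1.58). Of 35 other filament binding and severing proteins, 5 rose and 8 fell. The class I myosin MYO1C fell from 366 tags to 160 (-1.06). MARCKSL1, which binds filaments and the membrane, rose from 48 tags to 113 (1.37).

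Of 21 focal adhesion proteins, 2 rose and 5 fell. The genes that rose were the LIM proteins PDLIM5 (553 tags to 662) and PDLIM7 (101 to 174). The 5 that fell were the adaptor CRKL (82 tags to 19), the LIM proteins TGFB1I1 (137 to 58), FHL2 (258 to 113) and CSRP1 (780 to 348), and kindlin-2 (FERMT2, 145 to 65). Of 15 genes known as SRF, its coactivators and their targets, 6 of which are among the 49, 2 rose and 4 fell, with CYR61 going from 257 tags to 92 (log2 fold change -1.34) and FOS from 786 to 1274 (0.83).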

How the data were processed

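Digital gene expression was measured in 2 libraries of A549 cells, 1 for each hairpin. The authors counted tags from oligo(dT)-selected mRNA per Entrez Gene, and the deposited counts are not normalized. The deposited TPM columns are the authors' counts per 1000000 clean tags, and were used only to recover the clean tags of each library (3516261 for shRNA-Con and 3456212 for shRNA-SOX2). Deposited columns of log2 ratios, p-values and FDR hold the authors' own comparison and were not used. The submitters' processing notes name hg19, and an aligner is not given in the sources used here. Promoter windows came from RefSeq on GRCh38.p14, which was used for those windows alone.

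Fisher's exact test (scipy 1.17.1, Python 3.11.15) was run on all 13137 genes with Benjamini-Hochberg adjustment, at the FDR of 0.001 that the study's methods use. Counts under 3 tags were set to 3 for fold changes. Shares carry Clopper-Pearson intervals, and fold changes and ratios carry exact conditional intervals (95%). At these depths the intervals cover counting error only. Alternatives were TMM factors (edgeR 4.0.16), median ratio size factors (DESeq2 1.42.0), clean tags, scaling to ACTB, at least 10 tags, an FDR of 0.05 and edgeR's exact test with an assumed coefficient of variation of 0.1, 0.2 or 0.4 (R 4.3.3). The depth class of 500 tags was set after the data had been seen.

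The members, their roles and the gene lists were chosen with earlier results of these data known. All members were named, and from the other lists those called with at least 2-fold, up to 6 a list, as well as SOX2, marker genes and PDLIM5, PDLIM7, FOS, SRF, MKL1 and MKL2, of which the last 6 were chosen after their values were seen. Of the listed genes outside the 49, VIL1, LCP1, ACTN2, CNN1 and TNS3 were not analysed here. The results of 1 of the lists and of some single genes are not reported here. The steps were tested on data simulated with counting error only, so that test does not cover a spread between cultures.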

Additional observations from a re-analysis of the deposited data

How the results depend on the processing

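No paired analysis was possible because shRNA-SOX2 and shRNA-Con gave 1 library each, and leaving a library out would have left nothing to compare. With an assumed coefficient of variation of 0.1, 0.2 and 0.4 in edgeR's exact test, 1166, 113 and 0 genes were called in place of 2849, and 8, 0 and 0 members in place of 31 (2, 0 and 0 higher, and 6, 0 and 0 lower). Unadjusted p-values with these coefficients were not compared with those of all genes, so their counts are not given. Of the 110 other actin genes, 3, 1 and 0 were called higher and 10, 0 and 0 lower. At an FDR of 0.05, 4902 genes were called. With clean tags, 8 members were called higher and 6 lay past 2-fold lower. The median log2 fold change of the members was -0.14 with TMM factors, -0.15 with median ratio factors, -0.33 with clean tags and -0.15 scaled to ACTB, and the log2 ratio of their summed tags, -0.18, became -0.11, -0.11, -0.30 and -0.12. Signs turned for ACTB (0.00659 with TMM factors, 0.00414 with median ratio factors), PFN2 (0.00787 and 0.00542, and 0.00128 scaled to ACTB) and, with clean tags, MYH10 (-0.00991), CNN2 (-0.0239) and ACTR2 (-0.00847), none of them called in those settings. The summed tags, the other actin genes under each setting and the scaling to ACTB were added after seeing the data. The cause of these differences was not tested, other than that the assumed spread widens every gene's error by construction. Depth limits MYL9, TAGLN, MYH10 and WASF2 most.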

Other observations

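Gene Ontology component terms in the deposited table point to further genes of the same structures, chosen here after their values were seen. Of 62 genes outside the 49 with the term actin cytoskeleton, 8 were higher and 10 lower in the library labelled shRNA-SOX2 (29.0% called, beside 21.7% of all genes). The largest fall among them was that of CLIC4, a chloride channel family protein found at the cell cortex, which went from 498 tags to 64 (log2 fold change -2.82, adjusted p = 1.67e-73 by Fisher's exact test). JUP, or plakoglobin of cell junctions, rose from 165 tags to 341 (1.19). The term lamellipodium had 51 further genes, with 3 higher and 10 lower (25.5% called), and ruffle had 37, with 1 higher and 9 lower (27.0%). Filopodium had 14, with 3 higher and 1 lower (28.6%), and stress fiber 14, with 2 higher and 2 lower (28.6%).

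Of 73 further genes with the term focal adhesion, 6 were higher and 13 lower (26.0%). JUB, or ajuba, went from 458 tags to 110 (log2 fold change -1.92) and TES, or testin, from 285 to 110 (-1.24). FBLIM1, or migfilin, which binds filamin, went from 154 tags to 44 (-1.67). The integrin genes ITGB1 and ITGA5 rose, with ITGB1 at 3182 and 4281 tags (0.57) and ITGA5 at 28 and 67 (1.40). These differences are between 2 libraries, without a replicate check.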
